A study of Gallus gallus with 4 samples.

Results

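The ovaries of late sexual maturity hens at 153 days (L-F-O2) were compared with those at 32 days (L-F-O1) in the Ningdu Yellow chicken, a Chinese breed that holds sub-breeds with an early and a late onset of lay. This comparison takes 2 of the 4 libraries of the series. The other 2 are ovaries of the early sexual maturity sub-breed at 103 days (P-F-O2) and 32 days (P-F-O1), and they share no library with the late comparison. L-F-O1 and P-F-O1 were pre-laying and P-F-O2 was laying, whereas L-F-O2 is given as laying in its sample label and as pre-laying in the series' design text, so only its age is used here. All hens were kept in cages, no treatment or engineered allele is given for any group, and each library was a mix of total RNA from several whole ovaries. Each condition therefore had 1 library, no difference has a replicate check, and age cannot be told apart from other differences between 2 libraries.

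What was available for the late comparison was the outcome of the authors' call for each gene, arranged by gene ontology (GO) term and by KEGG pathway. A called gene is one that the authors counted as differentially expressed between L-F-O2 and L-F-O1. The tables do not say in which of these ages it was higher, and they hold no expression level. The ovary label could thus not be checked against marker genes, and the number of reads behind a call is unknown here. In whole ovary, fewer cells of a type and less RNA per cell cannot be told apart. Of 17934 population genes, 4163 were called in the late comparison, which is 23.2% of them. In the early comparison 5037 of the same 17934 genes were called, or 28.1%. These shares are the background against which each term is read. The paper reports fewer genes detected across its libraries than this population holds. The population thus includes genes without detected expression, which lower the background and the share of any term that holds them. Which genes these are was not examined.

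The ovary of a growing hen carries many small follicles in a connective tissue stroma. Toward sexual maturity a few follicles enter rapid growth, take up yolk from the blood and gain a theca with vessels and nerves, and granulosa and theca cells become responsive to pituitary hormones. Extracellular matrix, cell surface receptors, secreted hormones and ion channels are the means by which these cells hold to and signal to each other. Calcium is a second messenger of many of these receptors and the trigger of contraction in smooth and striated muscle.

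The late table listed 182 GO terms, and 90 of them had fewer than 300 population genes and are called narrow here. The paper counts fewer terms for this comparison at its Bonferroni-adjusted cutoff. A listed term thus need not be one that the paper reports as enriched. Terms for the outside of the cell, matrix, secreted signals, channels and ribosomes held more called genes than the background, and terms for the nucleus, RNA processing, chromatin, mitochondria and protein breakdown held fewer. Of the 90 narrow terms, 54 lay above 23.2% and 36 lay below it. The share called had a median of 47.1% over the 54 terms, between 33.3% and 76.9%, and a median of 8.54% over the 36 terms, between 1.47% and 12.2%. No narrow term lay between 12.2% and 33.3%. The authors' enrichment step decided which terms were listed, so the distance of a term from the background is a description of what was listed, and no test of it was run.

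**Figure D1:**
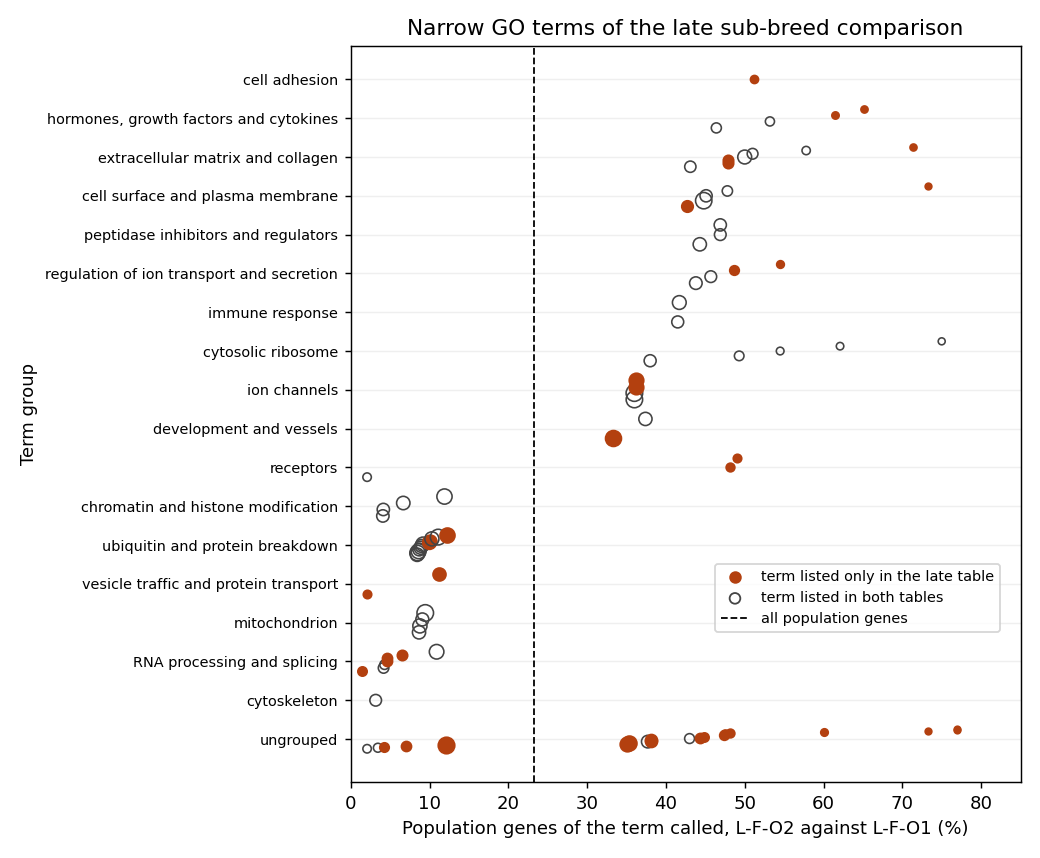
Each circle is 1 of the 90 narrow GO terms, placed by the percent of its population genes called in L-F-O2 against L-F-O1 (x axis) and by term group (y axis), with a larger circle for a larger term. Filled circles are terms listed only in the late table, open circles are terms listed in both tables, and the dashed line is the 23.2% of all population genes; the terms form a set from 33.3% upward and a set from 12.2% downward.

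These terms overlap widely. They held 84 distinct gene lists, 4118 distinct genes and 1024 distinct called genes. The 54 terms above the background covered 2297 genes, of which 868 (37.8%) were called. The 36 terms below it covered 2062 genes, of which 199 (9.65%) were called, and 43 called genes belonged to terms of both kinds. A name was at hand for 362 of the 1024 called genes, taken from the part of the study's gene list used here. That list holds genes called in the early comparison, so a named gene is nearly always one called in both sub-breeds, and genes called in the late sub-breed alone mostly appear by identifier.

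Extracellular matrix and collagen, the fibres and proteoglycans around the cells, made up 7 narrow terms with 294 genes. Of these, 144 (49.0%) were called in the late comparison. Collagen fibril organization had the highest share, with 15 of 21 genes (71.4%), and proteinaceous extracellular matrix the lowest, with 50 of 116 (43.1%). In the collagen term itself 26 of 45 genes were called (57.8%). The called genes found in most terms of the group included COL3A1, COL5A1, COL5A2 and COL11A1, chains of fibril-forming collagens, together with ADAMTS2, an enzyme that trims procollagen, ACAN, the core protein of the proteoglycan aggrecan, and COL18A1, a basement membrane collagen. COL3A1, COL5A1, COL5A2, COL11A1, ACAN and ADAMTS2 were all called under collagen fibril organization.

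The attachment of cells to this matrix gave 1 narrow term in its own group, cell-matrix adhesion, with 21 of 41 genes called (51.2%). Its called genes included ITGB3, an integrin chain, FN1 and VTN, the adhesive proteins fibronectin and vitronectin, CTGF, a matrix-associated growth factor, and TEK, a receptor tyrosine kinase of vessel endothelium. Integrin-mediated signaling pathway, which belonged to no group, had 18 of 30 genes called (60.0%), among them the integrin chains ITGB3, ITGB2, ITGA11 and ITGA8. Both terms held COL3A1, CTGF, ITGB3 and ITGB2, so their counts are not separate evidence.

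Terms for the binding of carbohydrates also held more called genes than the background. Polysaccharide binding had 10 of 13 genes called (76.9%, with 46.2% as the lower bound of the 95% exact binomial interval), the highest share of any narrow term, and pattern binding held the same 13 genes. The interval here and below covers only the small number of genes in the list. Named genes of the term were VTN, ENPP3, a nucleotide-cleaving enzyme of the cell surface, and SUSD2, a membrane protein. Glycosaminoglycan binding had 30 of 67 genes called (44.8%) and carbohydrate derivative binding 36 of 76 (47.4%).

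Secreted signals followed. Hormone activity, growth factor activity, chemokine activity and chemokine receptor binding together held 167 genes, of which 85 (50.9%) were called. Chemokine activity had the highest share, with 15 of 23 (65.2%, interval 42.7% to 83.6%), and growth factor activity the lowest, with 39 of 84 (46.4%). Hormone activity had 33 of 62 genes called (53.2%). Called genes of the group included GH1, which is growth hormone, IGF2, an insulin-like growth factor, FGF18, a fibroblast growth factor, STC1, which is stanniocalcin, and GIP, a gut peptide hormone. The symbol CCL4 was given to 2 called chemokine identifiers, ENSGALG00000000951 and ENSGALG00000000956, and reads of such close relatives may be split between them.

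Inhibitors and regulators of peptidases, which hold matrix-cutting and clotting enzymes in check, had 84 of 189 genes called (44.4%) over 3 terms. Peptidase inhibitor activity had 60 of 128 genes called (46.9%), and enzyme inhibitor activity 78 of 176 (44.3%). SERPIND1, which is heparin cofactor, and TFPI, the inhibitor of tissue factor, were among the called genes present in all 3 terms, as were COL3A1 and COL5A2.

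Cell surface terms, which in this grouping include extracellular space, had 219 of 489 genes called (44.8%) over 5 terms. Anchored to plasma membrane had 11 of 15 genes called (73.3%, interval 44.9% to 92.2%), with CA4, a carbonic anhydrase of the membrane, and GPC3, a glypican, among them. The lowest share of the group was that of integral to plasma membrane, with 53 of 124 (42.7%). Extracellular space was the largest term of the group, with 129 of 288 genes called (44.8%).

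The receptor group held 102 genes over 3 terms, of which 27 (26.5%) were called in the late and 22 (21.6%) in the early comparison. These shares were 1.14 and 0.768 times their backgrounds. The 3 terms were scavenger, cargo and olfactory receptor activity, so the group does not stand for receptors in general. Scavenger and cargo receptor activity were listed only in the late table. The wider listed term receptor activity had 281 of 780 genes called in the late (36.0%) and 307 in the early comparison (39.4%). Its shares were 1.55 and 1.40 times the backgrounds. Terms for uptake of ligands lay above the background and the term for smell below it. Scavenger receptor activity had 24 of 49 genes called (49.0%) and cargo receptor activity 26 of 54 (48.1%), with STAB1, a scavenger receptor of endothelium and macrophages, SCARF1, another scavenger receptor, and LOXL2, an enzyme that crosslinks collagen, in both. Olfactory receptor activity, in the same group, had 1 of 48 genes called (2.08%), and the term for smell detection held the same numbers.

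Ion channels had 107 of 297 genes called (36.0%) over 4 nested terms, and the shares lay between 36.0% for ion channel activity (105 of 292) and 36.2% for gated channel activity (80 of 221). KCNC4, KCNA3 and KCND3, which are voltage-gated potassium channels, HCN4, a pacemaker channel, and P2X1, a cation channel opened by ATP, were called under all 4 terms. Terms for the regulation of ion transport and secretion held 257 genes, of which 111 (43.2%) were called. Positive regulation of ion transport had the highest share, with 18 of 33 (54.5%), and regulation of secretion the lowest, with 67 of 153 (43.8%). Called genes under the regulation terms included TRPV2, a cation channel, DRD4, a dopamine receptor, NKX2-5, a transcription factor known from heart development, and CHRNA3, a nicotinic acetylcholine receptor subunit. Regulation of amine transport, outside the groups, had 11 of 15 genes called (73.3%), with CHRNA3, CHRNA7, another nicotinic subunit, and NOS1, a nitric oxide synthase, among them.

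Immune terms had 126 of 306 genes called (41.2%). Immune response itself had 80 of 192 (41.7%) and regulation of response to external stimulus 56 of 135 (41.5%). BLB1, DMA and DMB2, which belong to the major histocompatibility complex class II and its loading, CD74, the invariant chain of class II, TLR4, a receptor for bacterial lipopolysaccharide, and THBS1, which is thrombospondin, were called. Multicellular organismal development had 65 of 174 genes called (37.4%), and neurological system process 91 of 273 (33.3%), the lowest share of the 54 terms. Called genes of these terms included SOX2, a transcription factor of stem and neural cells, and PIWIL1, a Piwi protein known from germ cells.

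Ribosomal terms had 54 of 144 genes called (37.5%). The share was 15 of 20 (75.0%) for the cytosolic small subunit, 18 of 33 (54.5%) for the cytosolic large subunit and 52 of 137 (38.0%) for structural constituent of ribosome. RPS14, RPS24, RPS2, RPS13 and RPS15A of the small subunit and RPL22 and RPL38 of the large one were called, and the group also took in MRPS21 of the mitochondrial ribosome.

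Among the terms with few called genes, the group named RNA processing and splicing had 32 of 415 genes called (7.71%). This group also took in terms for helicase activity, which hold DNA helicases too. Spliceosomal complex had 1 of 68 (1.47%), the lowest share of any narrow term, and its 1 called gene was ENSGALG00000013005. The highest share of the group was that of RNA processing, with 24 of 220 (10.9%). tRNA metabolic process had 6 of 93 genes called (6.45%), and ATP-dependent helicase activity 4 of 87 (4.60%). Named called genes were ESRP2, an epithelial splicing regulator, YBX1, an RNA- and DNA-binding protein, DDX20, a DEAD-box helicase, BRIP1 and PIF1, which are DNA helicases, and TSEN54, a subunit of the tRNA splicing endonuclease.

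Chromatin terms had 29 of 244 genes called (11.9%), which is the count of chromatin organization, the widest of them. Covalent chromatin modification had 6 of 147 (4.08%). ASH2L, part of a histone methyltransferase complex, HAT1, a histone acetyltransferase, TADA1L, a transcriptional adaptor, and SMARCC1, a subunit of a chromatin remodelling complex, were called. Ubiquitin and protein breakdown, with 12 overlapping terms, had 53 of 497 genes called (10.7%), between 8.43% for proteolysis in protein catabolism (15 of 178) and 12.2% for carbon-nitrogen ligases (29 of 237). SKP2, a substrate-binding subunit of a ubiquitin ligase, was called under all 12 terms, and USP2 and CYLD, which remove ubiquitin, were also called.

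Mitochondrial terms had 28 of 304 genes called (9.21%), between 8.67% for organelle inner membrane (15 of 173) and 9.46% for mitochondrial part (28 of 296). UQCR10 and UQCR11, small subunits of the cytochrome bc1 complex, TIMM10, a protein import chaperone, and OPA1, a GTPase of inner membrane fusion, were called. Golgi vesicle transport had 1 of 48 genes called (2.08%) and endoplasmic reticulum part 19 of 169 (11.2%). Structural constituent of cytoskeleton had 4 of 126 genes called (3.17%), none of them named.

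Narrow terms outside the groups were on both sides of the background. Monooxygenase activity, which covers oxygen-inserting enzymes such as those of steroid and drug metabolism, had 34 of 79 genes called (43.0%) in the late and 43 (54.4%) in the early comparison. Regulation of cell activation had 58 of 154 called in the late (37.7%) and 75 in the early comparison. CD74, CD40 and IL-12B, all of the immune system, WNT5A, a secreted Wnt ligand, and CD44, a receptor for hyaluronan, were among the named called genes, CD74, CD40, WNT5A and CD44 under 5 and IL-12B under 4 of the 20 ungrouped terms. S-adenosylmethionine-dependent methyltransferase activity, which covers enzymes that methylate other molecules, had 2 of 58 genes called in the late (3.45%) and 4 in the early comparison.

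The genes of these groups were then followed in the early sub-breed. Of the 1024 called genes of the narrow terms, 828 were also called in the early comparison, 194 were not, and 2 were not in the early table. The shared part was thus 80.9%, beside 77.7% (2037 of 2620) of all called genes named in the late GO lists. Of these 2620 genes, 50 were not in the early tables, and the 77.7% counts them as not shared. In the extracellular matrix group 125 of the 144 called genes were also called in the early sub-breed, where 153 of the 294 genes (52.0%) were called. Both shares were above their own background, by 2.11 times in the late and 1.85 times in the early comparison. The ribosomal group stood differently, with 54 genes called in the late and 78 in the early comparison, of which 52 were the same. Its shares were 1.62 times the background in the late and 1.93 times in the early comparison. Only 2 of the 54 late ribosomal calls were in the late comparison alone, and 26 of the 78 early ones in the early comparison alone. Over all narrow terms, 194 of 1024 late calls were in the late alone and 404 of 1232 early calls in the early alone. The early-alone part of the ribosomal group was thus near that of all narrow terms, and its late-alone part was lower. The cell adhesion group held 1 term, cell-matrix adhesion, which was listed only in the late table. The late calls thus decided its listing. It had 21 called genes in the late and 17 in the early comparison of the same 41, or 2.21 and 1.48 times their backgrounds. The wider listed term cell adhesion had 133 of 318 genes called in the late (41.8%) and 134 in the early comparison (42.1%). Relative to the backgrounds, the late share of this wider term was still the higher one. The immune group had 126 called genes in the late and 153 in the early comparison, of 306. These shares were 1.77 times the background in the late and 1.78 times in the early comparison. Its terms differed, with immune response at 1.79 times in the late and 1.91 times in the early comparison. Regulation of response to external stimulus stood at 1.79 times in the late and 1.58 times in the early comparison. None of these differences was tested. By quantitative PCR (qPCR) the paper found BMP5 and BMP15, called in the early comparison alone, to differ in both comparisons. SOX14, taken from the late calls, did not follow the sequencing, and the paper mentions its low expression. For the genes it picked at random the paper reports concordance. A gene called in the early alone may therefore differ in both, and a late call may not be borne out by qPCR. Whether a gene called in the late alone differs in both was not shown by these genes.

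**Figure D2:**
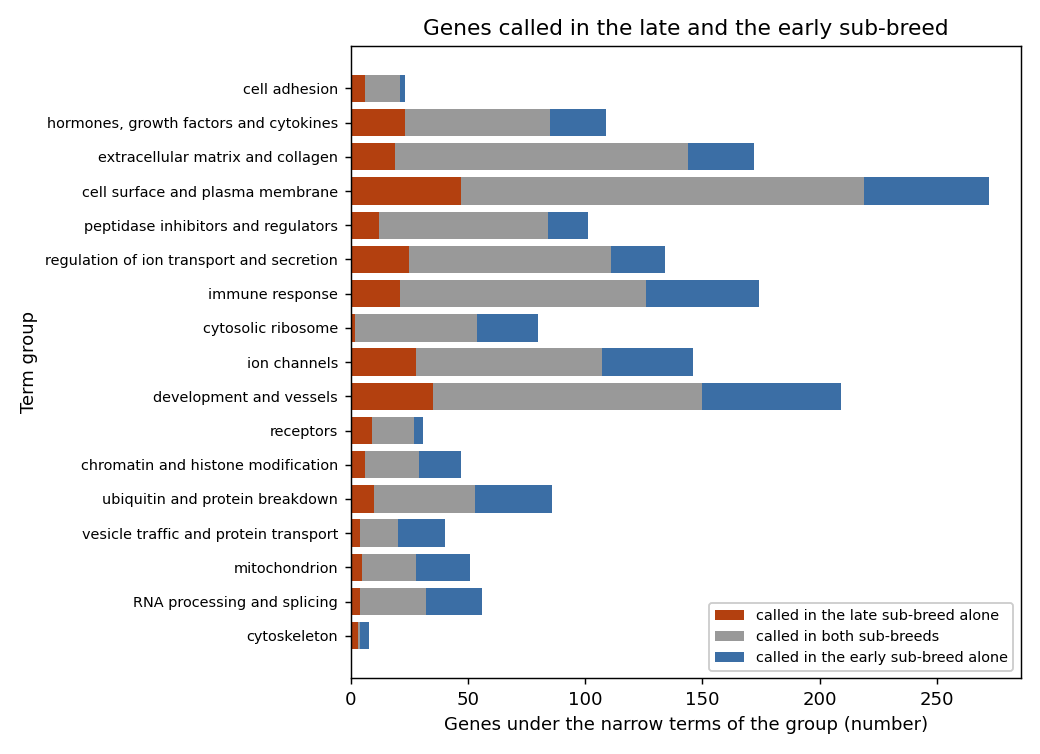
Bars give, for each term group (y axis), the number of genes under its narrow terms (x axis) called in the late sub-breed alone, in both sub-breeds, and in the early sub-breed alone. Genes called in both make up most of the called genes of the extracellular matrix group (125 genes), and the ribosomal bar has 2 genes called in the late alone and 26 in the early alone. Over all narrow terms, 194 genes were called in the late alone and 404 in the early alone.

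Of the 182 listed terms, 57 appeared only in the late table, 39 above the background and 18 below it. A term listed only there need not be enriched only in the late sub-breed. Narrow terms were 40 of the 57, with 28 above and 12 below the background, and the other 17 terms, wider ones, lay between 16.7% for establishment of localization in cell and 33.0% for response to endogenous stimulus. All 28 lay above the 28.1% of the early comparison when the same genes were followed there, and all 12 lay below it, so that no narrow term listed only in the late table changed side. The 28 terms had a median of 48.0% called in the late and 45.7% in the early comparison, or 2.06 and 1.63 times their backgrounds. The 12 terms had medians of 6.71% in the late and 15.3% in the early comparison, or 0.289 and 0.545 times their backgrounds. The late calls themselves decided which terms entered the late table, so these distances are not independent of the listing.

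Numbers of called genes were often close. In 15 of the 40 terms the late comparison had more called genes than the early one, in 4 the numbers were equal, and in 21 the late comparison had fewer. Over the whole population the late comparison had fewer calls. Of the 2620 called genes named in the late GO lists, 77.7% were also called in the early comparison and 533 were called in the late alone. The shared and added genes of single terms are to be read beside these values. Collagen fibril organization had 15 called genes of 21 in the late and 13 in the early comparison, and all 13 were among the 15. The 2 added genes were ENSGALG00000000702 and ENSGALG00000002987. Polysaccharide binding had 10 of 13 in the late and 7 in the early comparison, all 7 shared. Its 3 added genes were ENSGALG00000002896, ENSGALG00000004751 and ENSGALG00000016428, and these same 3 genes were also among the 7 called in the late comparison alone under scavenger receptor activity, which had 24 called genes of 49 in the late and 20 in the early comparison.

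Extracellular matrix organization, which held the same genes as extracellular structure organization, had 45 of 94 called in the late and 42 in the early comparison. Cell-matrix adhesion had 15 genes in common between 21 late and 17 early calls. Chemokine activity had 15 of 23 called in both comparisons, with 13 shared. Positive regulation of ion transport had 18 of 33 in both, with 16 shared. Integral to plasma membrane had 53 of 124 in both, with 42 shared, so equal counts did not mean the same genes. That shared part is near the 77.7% of all called genes named in the late GO lists. Regulation of amine transport had 11 of 15 in the late and 10 in the early comparison, with 8 shared. Terms for signaling by phosphorylation had slightly fewer late calls, with 26 of 54 in the late and 28 in the early comparison for regulation of ERK1 and ERK2 cascade, and 39 of 88 in the late and 41 in the early comparison for regulation of peptidyl-tyrosine phosphorylation. Gated channel activity had 80 of 221 called in the late and 87 in the early comparison, and neurological system process 91 of 273 in the late and 102 in the early comparison. Positive regulation of peptidyl-tyrosine phosphorylation had 29 of 61 called in the late and 30 in the early comparison. Signaling, which held the same genes as single organism signaling, had 53 of 139 in the late and 58 in the early comparison. Regulation of cellular localization had 83 of 235 in the late and 89 in the early comparison, and positive regulation of multicellular organismal process 79 of 225 in the late and 88 in the early comparison.

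The terms listed only in the late table with few called genes showed a wider gap in numbers. The late calls decided this listing, and over all genes the late comparison had 4163 calls against 5037 in the early one. Both favour fewer late calls in such terms, so the gap is no separate result about these genes. ATP-dependent helicase activity had 4 of 87 called in the late and 12 in the early comparison, and all 4 were among the 12. For tRNA metabolic process the numbers were 6 of 93 in the late and 15 in the early comparison, and for nuclear body 6 of 86 and 12, with every late call again also an early call. Nucleolus had 36 of 297 in the late and 55 in the early comparison. Protein ubiquitination had 19 of 192 in the late and 32 in the early comparison, and endoplasmic reticulum part 19 of 169 and 32. Protein C-terminus binding had 3 of 71 in the late comparison and 10 of the 69 that could be followed in the early one. Spliceosomal complex was the exception among the 12 terms, with 1 called gene in the late comparison and no called gene of 68 in the early one.

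**Figure D3:**
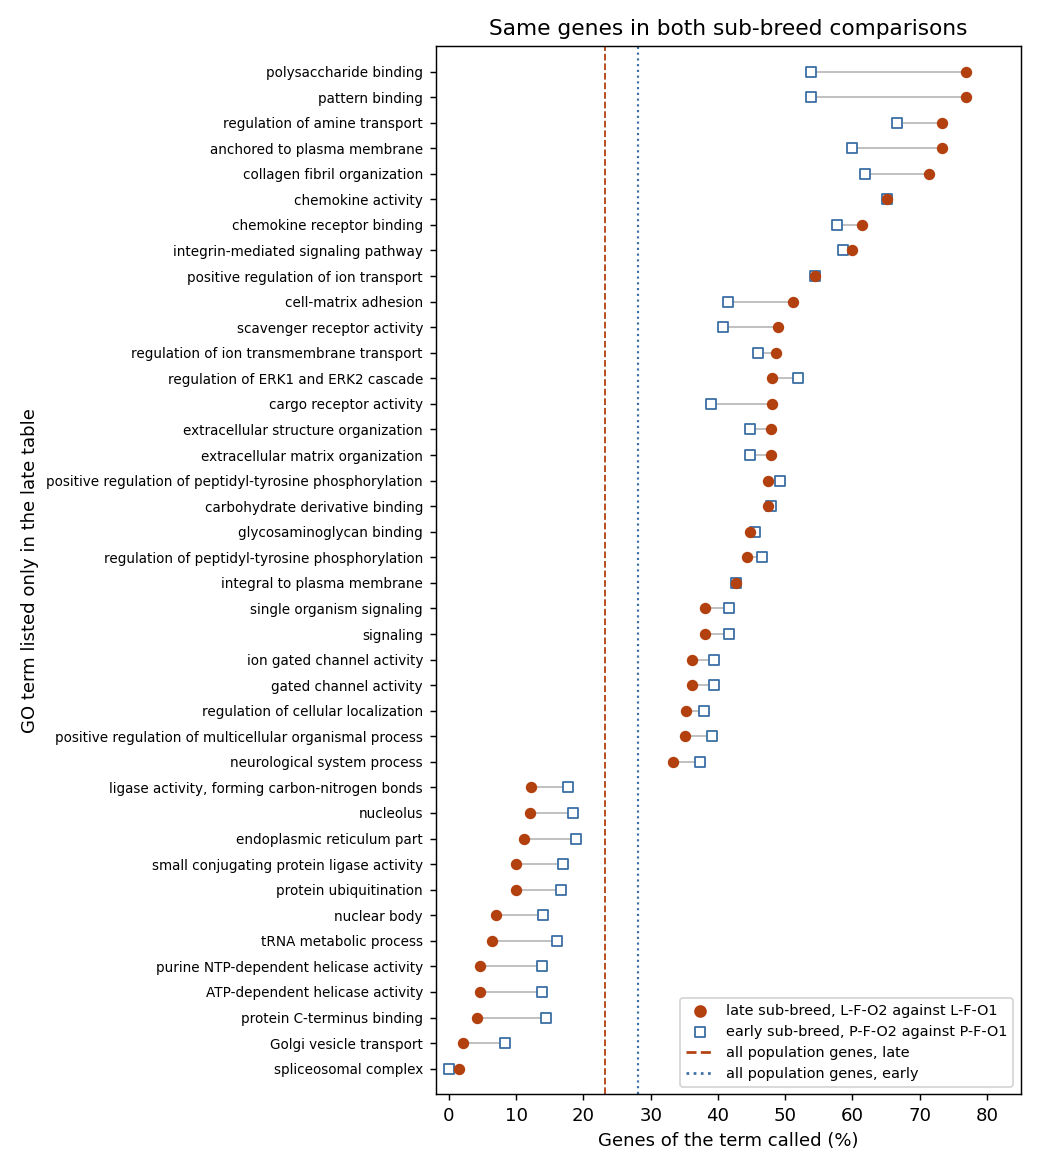
For each of the 40 narrow terms listed only in the late table (y axis), a filled circle gives the percent of its genes called in L-F-O2 against L-F-O1 and an open square the percent of the same genes called in P-F-O2 against P-F-O1 (x axis). The dashed line is the 23.2% of the late and the dotted line the 28.1% of the early comparison; each term has both marks on the same side of its own line.

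Over the 28 terms above the background, 476 of 1272 distinct genes were called in the late comparison (37.4%), 370 of these (77.7%) were also called in the early one, and 104 were called in the late alone. The same percentage, 77.7%, held over all called genes named in the late GO lists. Over the 12 terms below it, 107 of 1110 were called in the late comparison (9.64%), 94 of these (87.9%) in the early one too, and 13 in the late alone. VTN was called under 9 narrow terms listed only in the late table and CHRNA7 under 8, and both were also called in the early sub-breed. Of the genes called in the late sub-breed alone, ENSGALG00000005801 and ENSGALG00000015835 were each under 7 such terms, both of them gated channels by their terms, and ENSGALG00000000702 was under 6, among them collagen fibril organization, cell-matrix adhesion and glycosaminoglycan binding. These genes were singled out after their values were seen.

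No narrow GO term named calcium, muscle or heart. A wider listed term, calcium ion binding, had 182 of 489 genes called in the late comparison (37.2%) and 199 in the early one (40.7%). Of these called genes, 143 were shared, and each share lay above its own background. Only 1 of the 10 called genes of the KEGG calcium signaling pathway was in this term. Whether the genes of the pathway that were not called are in the term was not examined. Calcium signaling and muscle contraction were read from the KEGG pathways. The late table listed 68 pathways. Summed over pathways, 257 of 962 gene entries were called, or 26.7%, against 311 of 970 entries, or 32.1%, in the early table. No pathway listed for the late comparison was without a called gene. Pathways without any call would thus be missing from the sum, and the 26.7% may lie above the share over all pathways. One gene can stand in several pathways, and the 257 entries came from 132 distinct called genes, of which 107 were also called in the early KEGG table (81.1% of the 132 late and 68.6% of the 156 early called genes). The median share called over the 68 pathways was 22.2%.

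Calcium signaling pathway had 10 of 15 genes called in the late comparison (66.7%, interval 38.4% to 88.2%), and 8 of the same 15 in the early comparison (53.3%, interval 26.6% to 78.7%). All 8 early calls were among the 10 late ones. Both intervals rest on the same 15 genes, so they cannot be set against each other. The difference of 2 genes was not tested. The 10 genes cover receptors, channels, a pump and a sensor. PTAFR, the receptor for platelet-activating factor, and HTR4, a serotonin receptor, are G-protein coupled receptors. ENSGALG00000000788, ENSGALG00000001416 and ENSGALG00000002808 had no name, and their GO terms also placed them among G-protein coupled receptors. With these, 5 of the 10 genes were in that GO term, which held 122 (2.93%) of all 4163 called genes. The make-up of the pathway itself bears on this count. The receptor share of its 15 genes was not examined, so no excess of receptors among the calls can be read from it. The list of names gave HTR4 the same locus as IL-12B, so reads may be shared between these genes.

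Among the channels of the pathway was P2X1, which lets calcium and sodium in when ATP binds outside the cell. ENSGALG00000000730, without a name, was a gated ion channel by its GO terms, and KEGG placed it in 5 pathways, among them GnRH signaling and MAPK signaling. ATP2A3 is a calcium pump of the endoplasmic reticulum and stood in no other listed pathway. TNNC1 is the troponin subunit that binds calcium in slow skeletal and heart muscle. ENSGALG00000000824 had no name, was annotated with ATP binding and protein modification, and also stood in the focal adhesion and actin cytoskeleton pathways. ENSGALG00000001416 and ENSGALG00000000730 were the 2 genes called in the late comparison alone.

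Cardiac muscle contraction had 5 of 7 genes called in the late comparison (71.4%, interval 29.0% to 96.3%) and 4 of 7 in the early one (57.1%, interval 18.4% to 90.1%), with 3 shared. The shared genes were TNNC1, NHE1, which exchanges sodium for protons at the cell membrane, and UQCR11 of the cytochrome bc1 complex. ENSGALG00000000730 and ENSGALG00000000302 were called in the late comparison alone, and TPM4, a tropomyosin, in the early comparison alone. ENSGALG00000000302 was annotated as a structural constituent of cytoskeleton and was 1 of the 4 called genes of that term. UQCR11 was 1 of the 15 called genes of mitochondrial inner membrane.

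The 2 pathways had TNNC1 and ENSGALG00000000730 in common, so that they held 13 distinct called genes, of which 10 (76.9%) were also called in the early sub-breed. This share is near the 77.7% of all called genes named in the late GO lists. Other pathways drew on the same genes. Of the 10 calcium genes, 6 were also in neuroactive ligand-receptor interaction, which had 14 of 30 genes called in the late and 16 in the early comparison. Vascular smooth muscle contraction held 4 of the 10 and had 7 of 15 genes called in the late comparison (46.7%) and 5 in the early one, all 5 shared. With the genes called in both left out of each, calcium signaling had 61.5% and cardiac muscle contraction 60.0% of its remaining genes called.

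**Figure D4:**
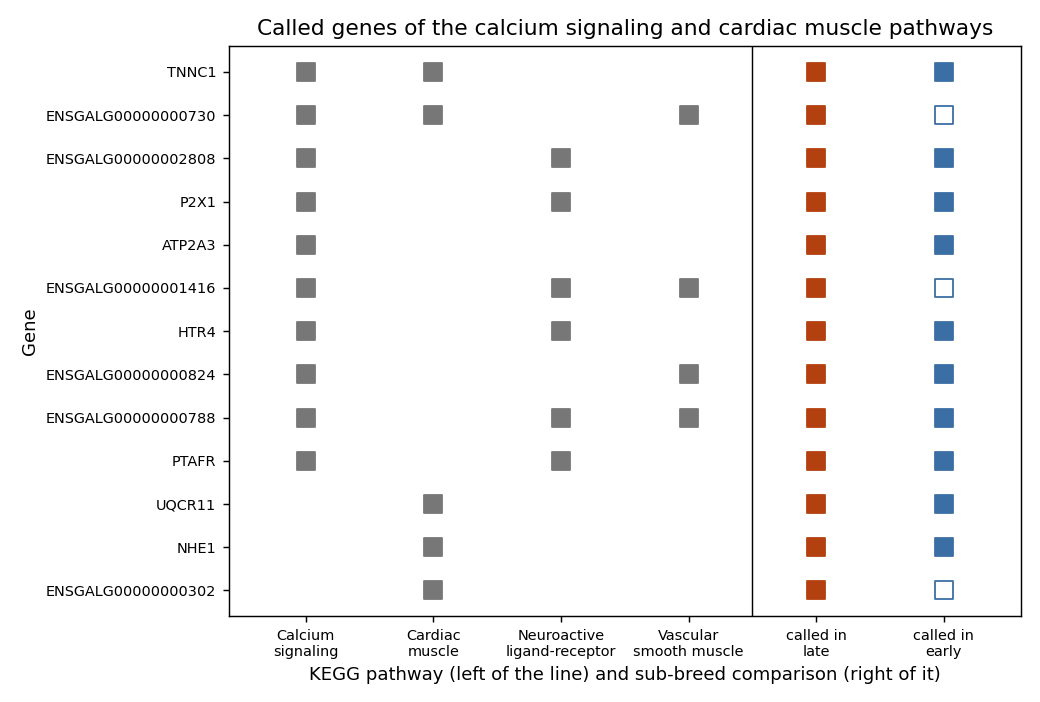
Rows are the 13 genes called in L-F-O2 against L-F-O1 in the calcium signaling or cardiac muscle contraction pathway, by symbol or identifier. Grey squares mark membership in 4 KEGG pathways, and the columns right of the line show the call in the late and the early comparison, where an open square is a gene not called; 3 genes have an open square.

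The KEGG lists covered only a slice of the genes. Of the 132 called KEGG genes, 128 (97.0%) had an Ensembl identifier whose number was at most 2896, and 4 lay above 2900. The GO lists of the same comparison reached 24486, and only 351 of their 2620 called genes (13.4%) had a number up to 2900. The early KEGG table showed the same, with 151 called genes up to 2900 and 5 above it. The 15 and 7 background genes of calcium signaling and cardiac muscle contraction are therefore few, and the shares above describe those genes and not the pathways as a whole. Among GO genes with numbers up to 2900 the share called was 21.3%, against 22.1% of all 11868 genes named under listed terms.

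**Figure D5:**
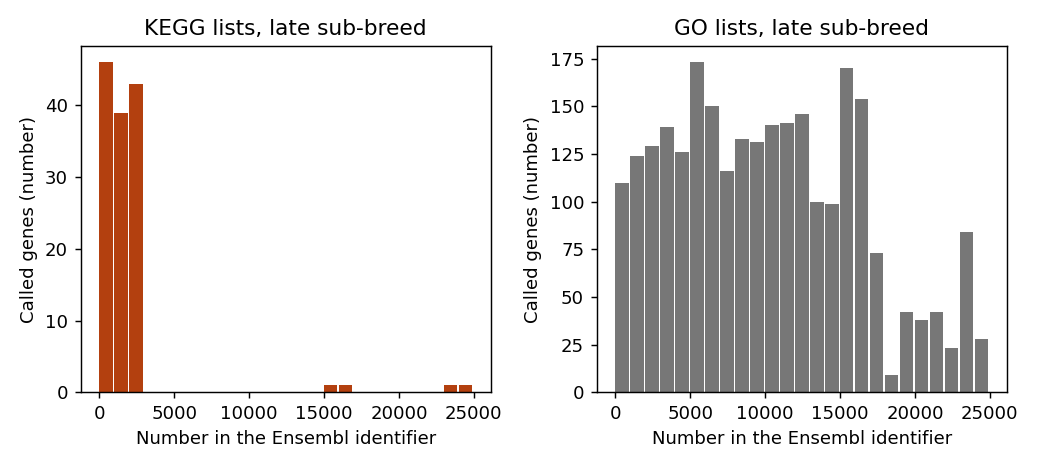
Bars count the called genes of the late comparison (y axis) by the number in their Ensembl identifier in steps of 1000 (x axis), for the KEGG lists on the left and the GO lists on the right. The KEGG lists stop near 2896 apart from 4 genes, and the GO lists run to 24486.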

How the data were processed

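Total RNA of whole ovaries was sequenced, with 1 pooled library per condition. According to the study's methods and the submitters' processing notes, reads were trimmed with SeqPrep and Sickle and aligned to galGal4 with TopHat (versions not given in the sources used here). FPKM was calculated, genes were called by Cuffdiff on a fold change or p-value criterion, and the calls were passed to Goatools (GO) and KOBAS (KEGG). The deposited tables give, for each term or pathway, the number of called and of background genes and their identifiers. The authors' columns of p-values and their adjustments were not used. No table holds a value per library, so depth per gene, normalization and direction were not examined. Calls between single libraries depend on the spread the caller assumes.

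Gene lists of the late table were broken at 44 places, and at every break the cut identifier matched a single whole identifier elsewhere, which was put in its place. All lists then had their deposited length. The reading step was tested on simulated tables. Shares were calculated with Python 3.11.15, and exact (Clopper-Pearson) 95% intervals with SciPy 1.17.1. A gene was followed in the early sub-breed where a listed early term or pathway held it. Terms were put into 17 groups by words in their names, and 20 narrow terms matched none. The text names the highest and lowest term of a group and genes from the 8 named called genes in most of its narrow terms, all genes of the calcium and cardiac pathways, and terms listed only in the late table. Names came from the part of the study's gene list used here. The members, groups and lists were chosen with earlier results of these data known. No test was run, since each condition had 1 library and genes are not replicates. Alternatives were other size limits, identical lists counted once, another population, near copies left out and shared pathway genes left out.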

Additional observations from a re-analysis of the deposited data

How the results depend on the processing

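Of 65 alternative values, 63 stayed within 1.5 times the reported number or inside the exact interval of the reported share. Many of the 65 could not have moved, so this count says little about how stable the results are. Narrow terms above the background numbered 46 with a limit of 200 genes and 66 with a limit of 500, and those below it 25 and 43. With identical lists counted once they were 50 and 34. With near copies of terms listed in both tables left out, 38 terms listed only in the late table lay above and 17 below the background. In terms under 200 genes, the share called fell outside the interval in 2 groups, at 6.67% for chromatin and histone modification and 4.72% for RNA processing and splicing, because that limit drops chromatin organization and RNA processing, the widest terms of these groups. Leaving out broken identifiers could not move a narrow term, since the smallest term with a broken list had 1733 genes. Taking genes absent from the early table as not called could not move a group share, since every gene of the 17 groups was found there. A minimum of 5 background genes left out 0 pathways. The other population had 22.1% called, and no narrow term lay between 12.2% and 33.3%, so none changed side. No paired analysis was possible because each condition had 1 library. Depth per gene could not be examined, and a gene not called may be one with too few reads. By the paper's rule a fold change could suffice for a call, so a called gene may also be one with few reads. How many calls rest on weakly expressed genes was not examined. In both comparisons the paper gives more mapped reads, and a lower mapped percentage, for the older library. Depth thus differed along with age, and its part in the calls was not tested.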

Other observations

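Other KEGG pathways of the late comparison held immune, ribosomal and oocyte genes. Intestinal immune network for IgA production had 6 of 7 genes called in the late and 6 of 7 in the early comparison, with 5 shared, among them DMA, DMB2 and BLB1 of the class II complex and PIGR, the receptor that carries IgA across epithelium. The ribosome pathway had 5 of 11 genes called in the late comparison, among them RPL38 and RPL22, and 11 of 11 in the early one. Oocyte meiosis had 3 of 8 genes called in both comparisons, the same 3, of which CDC27, a subunit of the anaphase-promoting complex, was named. Progesterone-mediated oocyte maturation had 2 of 10 in the late and 4 of 10 in the early comparison, and steroid hormone biosynthesis 2 of 5 in the late and 3 of 5 in the early comparison. GnRH signaling had 1 of 10 in each, and the genes differed. Over the 68 pathways, the late comparison had more called genes in 16, equal numbers in 20 and fewer in 32. These pathways were chosen after their values were seen, and no difference was tested.

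Among the 1024 called genes, ENSGALG00000011562, which has no name here, stood under 17 narrow terms, more than any other gene. It was called in both sub-breeds and belonged both to terms with few called genes, such as protein ubiquitination, and to terms with many, such as neurological system process. Among named genes THBS1 stood under 14 narrow terms, and VTN and CHRNA7 under 13 each. A few genes with many annotations thus recur in the counts of many terms.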
